A study of Mus musculus with 36 samples.

Results

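The lysosome is the acidic compartment in which macrophages break down engulfed lipoproteins, dead cells and worn-out organelles. Its hydrolases cut glycans, lipids and proteins, its membrane proteins shield and regulate the compartment, and the vacuolar proton pump (V-ATPase) makes it acidic. Many of these genes can be activated together by the MiT/TFE transcription factors TFEB, TFE3 and MITF, which bind a short palindromic DNA element. In atherosclerosis, macrophages of the artery wall take up cholesterol-rich lipoproteins, whose cholesterol esters are hydrolysed in lysosomes. The 39 genes described here were chosen by symbol as lysosomal hydrolases other than cathepsins, lysosomal membrane proteins, V-ATPase subunits and the MiT/TFE factors. All 39 are among the 24421 genes of the count files and 18168 of those genes had at least 1 count in the 36 libraries.

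RNA was sequenced from aortic macrophages sorted after collagenase digestion of the whole vessel, peritoneal macrophages sorted from lavage fluid, and monocytes sorted from blood and spleen freed of red cells. Every mouse carried the Apoe ko genotype, which impairs clearance of lipoprotein remnants and leads to atherosclerosis, so that no group is a wild type. Each population was taken from mice on chow (baseline), after 1 month on high cholesterol diet (early) and after 6 months on it (advanced), which gave 9 groups of 4 libraries. Age, sex and strain are not given in the sources used here, and no label states that replicate libraries stem from different animals, so the p-values rest on a spread between libraries that may be technical. Each population had a single chow group, so that effects of diet and of time or age cannot be told apart in the stage comparisons. The series asks how gene expression of systemic and lesional monocytes and macrophages changes as atheroma forms and progresses.

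The 12 baseline libraries held 5278901 to 14771799 counted reads and the other 24 held 942899 to 2628766, so that depth changes with diet in comparisons with baseline. Values with counts thinned to the shallowest library are given where thinning changed the call of a member. The biological coefficient of variation was 110% in aortic macrophages, 21.2% in peritoneal macrophages and 19.1% in monocytes, and aortic differences were therefore the least precise. Apoe transcripts ranged from 2.65 to 112 counts per 1000000 counted reads (CPM) over aortic libraries, 3.17 to 108 CPM over peritoneal ones and 2.65 to 42.8 CPM over monocyte ones, and counts per gene do not show which exons the reads came from. All 4 macrophage markers were detected in every group and summed to 2457 to 4053 CPM over aortic libraries, 2008 to 4054 CPM over peritoneal ones and 1521 to 2497 CPM over monocyte ones. In monocytes the median was 1782 CPM for Csf1r and 6.48 CPM for Mertk. The 4 monocyte markers summed to 2245 to 4087 CPM in monocytes and 712 to 1320 CPM in the aorta. Aortic medians were 364 CPM for Ccr2, 434 CPM for Nr4a1 and 119 CPM for Cx3cr1. Ly6c2 had counts in 3 of 12 aortic libraries, none of them early, and reached at most 17.7 CPM. The 4 markers of arterial resident macrophages summed to 4368 to 9177 CPM in the aorta, at most 1377 CPM in the peritoneum and at most 1969 CPM in monocytes. Of these markers F13a1 had a median of 1013 CPM in monocytes and Lyve1 a median of 0 CPM. The 4 peritoneal macrophage markers, among them the transcription factor Gata6, summed to 3629 to 16310 CPM in the peritoneum and to at most 310.3 CPM in the aorta and 29.7 CPM in monocytes. Gata6 itself had no counts in the aorta at baseline or in monocytes at baseline and the advanced stage. In these bulk samples, fewer cells of a type and less RNA per cell cannot be told apart. Aortic baseline replicates 3 and 4, aortic advanced replicate 1, monocyte advanced replicate 3 and peritoneal early replicates 1 and 2 stood apart from the other libraries of their groups, and counts below are also given without these 6 libraries where that changed them by more than 1.5 times.

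The promoters of the genes are shown first, because the element bound by MiT/TFE factors is what the lysosomal genes are best known to share. RefSeq windows (GRCm38.p6) from 250 bases before to 50 bases after a start were at hand for 34 of the 39 genes, in 44 windows. Atp6v0d2, Atp6v1b2, Atp6v1c1, Atp6v1h and Asah1 had none. The windows were searched on both strands for CACGTG, which reads the same on either strand, and for TCACGTG, which contains it and reads CACGTGA on the other strand. Both occurred in 9 of the 34 genes (26.5%), against 8.09% of all 27025 genes with a window for CACGTG and 4.29% for TCACGTG. Counted by window, the share was 20.5% of the 44 windows for either motif, against 7.15% and 3.77% of all 32851 windows. The median GC content was 56.5% in the 44 windows and 52.7% in all windows. The 9 genes were the V-ATPase genes Atp6v0d1 and Atp6v1a, the glycosidases Gaa, Gla and Glb1, the membrane protein genes Lamp1, Cln3 and Mcoln1, and the protease Lgmn. A match is a description of the sequence and does not show binding.

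Of these 9 genes 5 are printed, as examples of membrane protein, glycosidase and processing genes described below. Capitals mark CACGTG together with a preceding T or a following A where present, and each window runs 5′ to 3′ on the gene's own strand. Lamp1 lies on the plus strand with its window at chr8:13158911-13159210, Mcoln1 on the plus strand at chr8:3500269-3500568, Glb1 on the plus strand at chr9:114400828-114401127, Gaa on the plus strand at chr11:119267713-119268012, and Lgmn on the minus strand at chr12:102439043-102439342.
Lamp1: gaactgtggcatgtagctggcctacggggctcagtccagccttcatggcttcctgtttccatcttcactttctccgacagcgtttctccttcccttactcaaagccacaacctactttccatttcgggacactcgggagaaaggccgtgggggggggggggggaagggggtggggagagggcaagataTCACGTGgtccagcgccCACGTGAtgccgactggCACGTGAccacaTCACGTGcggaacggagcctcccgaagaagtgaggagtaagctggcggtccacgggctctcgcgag
Mcoln1: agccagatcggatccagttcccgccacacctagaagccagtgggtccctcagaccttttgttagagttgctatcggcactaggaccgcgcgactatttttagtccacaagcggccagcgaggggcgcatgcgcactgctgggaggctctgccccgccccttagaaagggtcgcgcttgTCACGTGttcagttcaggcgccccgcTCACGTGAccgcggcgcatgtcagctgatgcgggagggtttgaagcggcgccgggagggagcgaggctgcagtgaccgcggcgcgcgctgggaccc
Glb1: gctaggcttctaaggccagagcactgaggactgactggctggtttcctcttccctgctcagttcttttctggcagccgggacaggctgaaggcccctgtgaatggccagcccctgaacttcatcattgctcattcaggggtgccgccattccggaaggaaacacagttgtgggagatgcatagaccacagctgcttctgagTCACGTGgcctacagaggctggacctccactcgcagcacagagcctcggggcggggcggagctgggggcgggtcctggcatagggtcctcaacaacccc
Gaa: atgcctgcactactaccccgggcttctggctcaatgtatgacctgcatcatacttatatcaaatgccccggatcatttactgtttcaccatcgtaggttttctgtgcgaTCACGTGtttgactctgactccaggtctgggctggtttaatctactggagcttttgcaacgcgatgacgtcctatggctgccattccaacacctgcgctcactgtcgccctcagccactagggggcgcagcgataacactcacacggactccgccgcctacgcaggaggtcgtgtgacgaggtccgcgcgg
Lgmn: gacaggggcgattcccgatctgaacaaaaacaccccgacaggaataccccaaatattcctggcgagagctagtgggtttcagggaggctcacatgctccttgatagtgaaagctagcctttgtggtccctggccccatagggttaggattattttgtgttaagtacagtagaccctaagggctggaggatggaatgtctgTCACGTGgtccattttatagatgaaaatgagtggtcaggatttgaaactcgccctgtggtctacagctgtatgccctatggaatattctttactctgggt
Lamp1 held 4 copies, 61, 45, 28 and 15 bases before the start, and Mcoln1 held 2, at 71 and 45 bases before it. Glb1, Gaa and Lgmn held 1 copy each, 48, 140 and 49 bases before the start. Of the genes not printed, Gla held 2, at 227 and 194 bases, Cln3 held 2, at 149 and 121 bases, and Atp6v1a and Atp6v0d1 held 1 each, at 131 and 3 bases before the start. Lgmn has a second window, from chr12:102439679-102439978, which held none.

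Together the 39 genes took 0.900 to 1.32% of the counted reads in aortic libraries, 1.10 to 1.58% in peritoneal ones and 1.07 to 1.72% in monocytes. Levels of different genes were compared per length, as CPM per kilobase of exon (RPKM), by the median over the 12 libraries of a population. Psap encodes prosaposin, the precursor of the saposins that activate sphingolipid hydrolases. It ranked highest of the 39 in aortic macrophages, at 737 RPKM, and in monocytes, at 2260 RPKM. In peritoneal macrophages the membrane protein gene Laptm5 ranked highest at 786 RPKM, followed by Psap at 680 RPKM. In the aorta the next ranks went to Lgmn (asparaginyl endopeptidase) with 394 RPKM, Lamp1 with 322 RPKM and Laptm5 with 314 RPKM, and in monocytes to Laptm5 with 477 RPKM and Lamp1 with 312 RPKM. Lamp1, a major glycoprotein of the lysosomal membrane, was the steadiest of the members in the aorta, with a coefficient of variation of 10.7% over the 12 libraries (CPM), while Smpd1, the acid sphingomyelinase gene, varied most among those with counts in every aortic library, at 150% (CPM). Tfeb was low per length in the aorta, at 3.56 RPKM, and in the peritoneum, at 3.52 RPKM, and stood at 12.4 RPKM in monocytes.

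**Figure D1:**
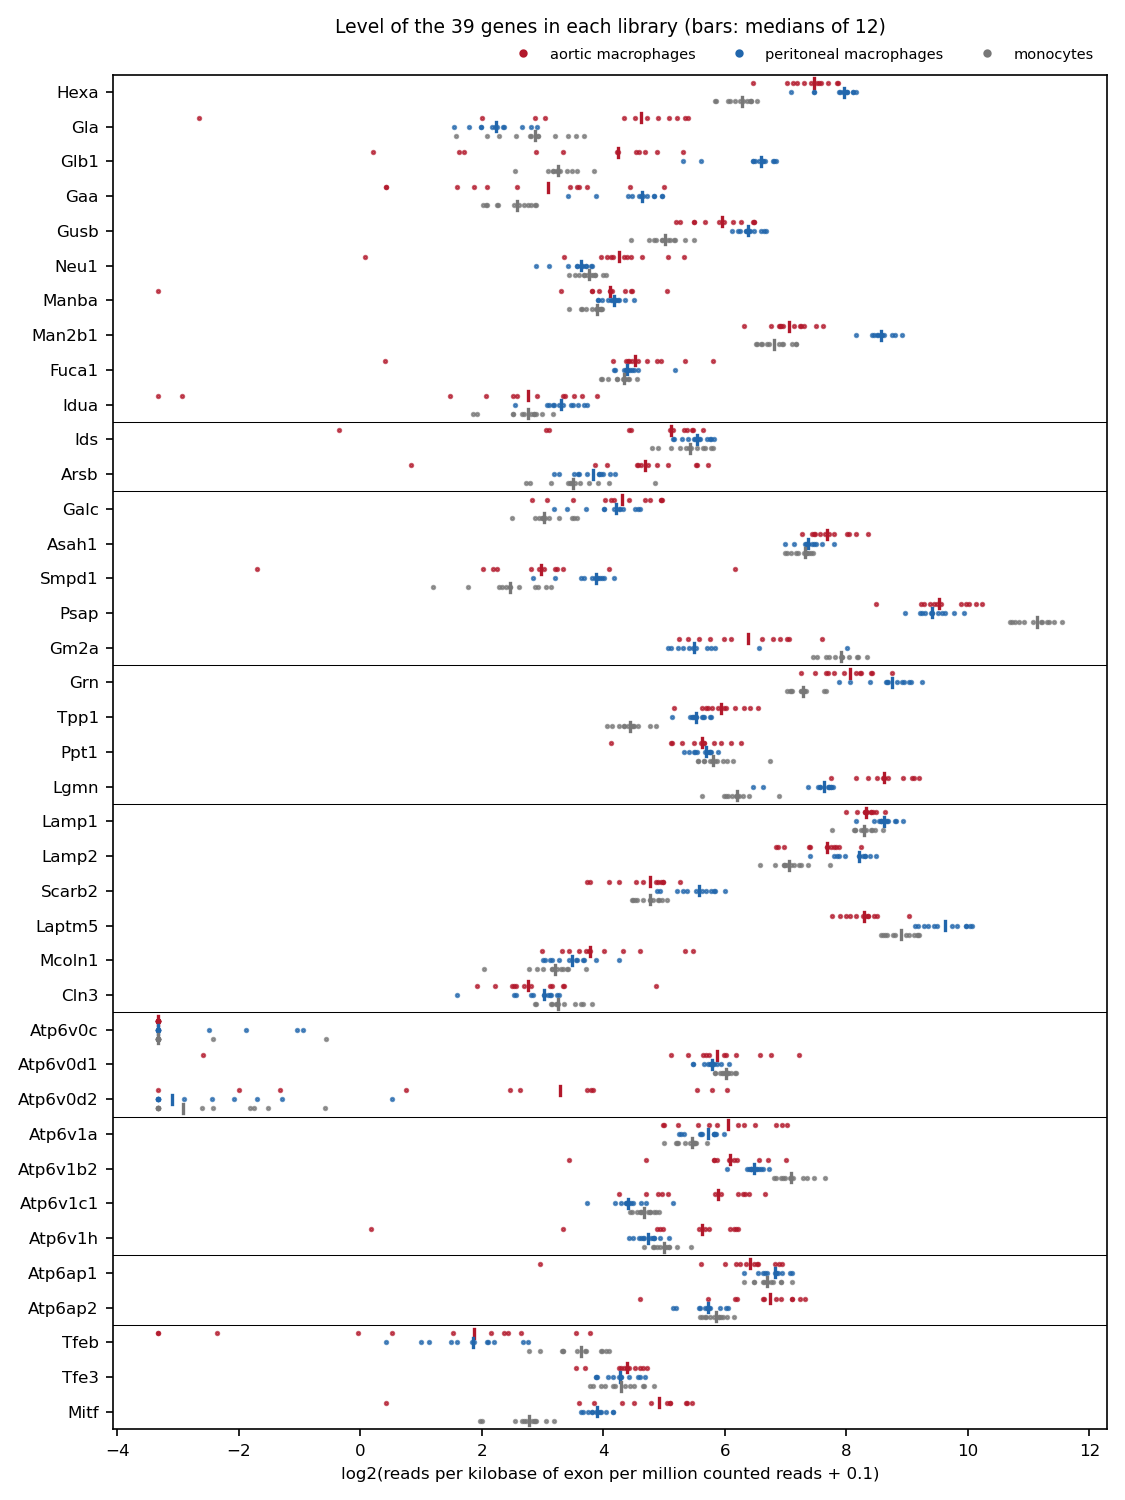
Level of the 39 genes in every library, as log2 RPKM with a small offset, with 1 point per library and a bar at the median of the 12 libraries of a population. Monocytes lie highest for Psap (median 2260 RPKM), Lgmn lies highest in the aorta (394 RPKM), and aortic points spread more widely than the others.

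Atp6v0c, which encodes the proteolipid of the membrane ring of the pump, was nearly absent from the counts. It had 0 counts in the 12 aortic libraries, which allows at most 0.0616 CPM over their pooled reads, 11 counts in 4 of 12 peritoneal libraries and 2 counts in 2 of 12 monocyte libraries. Genes of other subunits of the same membrane sector were well counted, with 12288 counts for Atp6v0b and 17024 for Atp6v0e over the 36 libraries. Atp6v0c was tested in no comparison, and the part that read assignment plays in its low counts was not tested. Exons of 6 members share bases with exons of another counted gene, on the opposite strand for 5 of them, and the use of strand in counting is not given in the sources used here. These 6 are Atp6v1h, Cln3, Glb1, Idua, Lamp1 and Ppt1, whose values are uncertain to that extent; the overlap spans 442 bases for Cln3 with Apobr and 177 bases or fewer for each of the others.

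Aortic macrophages had higher levels of the protease genes Lgmn and Tpp1 and of the glycosidase gene Hexa than monocytes, averaged over the 3 stages, and lower levels of the activator genes Psap and Gm2a. Of the 38 members tested, 16 were higher and 4 lower, or 52.6% of the members, against 29.7% of all 10696 genes tested, with 14.1% higher and 15.7% lower (edgeR's quasi-likelihood test, adjusted p below 0.05). Their median log2 fold change was 0.45, against -0.12 over all genes. By role, 3 of 10 glycosidases, 1 of 2 sulfatases, 3 of 4 protein and lipoprotein processing genes and 4 of 8 tested pump genes were higher. The 16 higher members and the 4 pump genes include Atp6v0d2, which passed the filter on low counts only through aortic libraries. For 3 members no aortic library overlapped a monocyte library, namely Lgmn and Tpp1 above and Psap below, against 2.72% of all genes above and 3.49% below.

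Lgmn spanned 435 to 1187 CPM with a median of 795 CPM over aortic libraries, and 99.1 to 240 CPM with a median of 148 CPM over monocyte libraries. Every aortic library therefore lay above every monocyte library. The fitted mean log2 fold change was 2.46 ± 0.12 (SE, adjusted p = 8.99e-15, edgeR, n = 12 each). Tpp1, which encodes the tripeptidyl peptidase mutated in a form of neuronal ceroid lipofuscinosis, had 128 to 333 CPM (median 219) in the aorta and 58.8 to 104 CPM (median 76.9) in monocytes. Its log2 fold change was 1.54 ± 0.16 (adjusted p = 9.97e-09, edgeR). Grn, encoding progranulin, had a log2 fold change of 0.76 ± 0.12 (adjusted p = 2.51e-05, edgeR). Both Lgmn and Tpp1 kept their direction and call in every alternative.

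Among the sphingolipid genes the activator genes were lower and the enzyme genes that passed were higher. Psap had 982 to 3317 CPM (median 2022) in aortic macrophages and 4543 to 8214 CPM (median 6203) in monocytes, a log2 fold change of -1.48 ± 0.11 (adjusted p = 3.92e-11, edgeR). Gm2a, which encodes the activator that presents GM2 ganglioside to hexosaminidase A, had 156 to 800.0 CPM (median 343) in the aorta and 722 to 1342 CPM (median 999.8) in monocytes, with a log2 fold change of -1.49 ± 0.15 (adjusted p = 5.33e-09, edgeR). Hexa, a hexosaminidase subunit served by that activator, was higher in the aorta, by 1.20 ± 0.15 (log2, adjusted p = 2.77e-07, edgeR). Galc, the galactosylceramidase gene, had a log2 fold change of 1.16 ± 0.23 (adjusted p = 0.000236, edgeR) and Asah1, the acid ceramidase gene, 0.51 ± 0.10 (adjusted p = 0.000355, edgeR). Smpd1 did not pass the test.

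The other aortic differences from monocytes were spread over the remaining roles. Mitf, the only MiT/TFE gene that passed, had 6.6 to 233 CPM (median 161) in aortic macrophages and 20.4 to 47.8 CPM (median 35.9) in monocytes, with a log2 fold change of 2.03 ± 0.33 (adjusted p = 2.27e-05, edgeR). Among glycosidases, Gusb (beta-glucuronidase) and Gla (alpha-galactosidase A) were higher by 0.90 ± 0.14 and 1.55 ± 0.47 on the log2 scale, and the sulfatase gene Arsb by 1.16 ± 0.33. The catalytic V1 subunit gene Atp6v1a and the V1 subunit gene Atp6v1c1 were higher by 0.72 ± 0.17 and 1.11 ± 0.24, while Atp6v1b2, a B subunit gene of the same sector, was lower with a log2 fold change of -1.10 ± 0.22. Of the membrane proteins, Lamp2 and the calcium channel gene Mcoln1 were higher by 0.45 ± 0.12 and 1.03 ± 0.32, and Laptm5 was lower with a log2 fold change of -0.60 ± 0.10. The mean CPM ratio of Lamp2 was near 0 on the log2 scale at baseline, at -0.01, against 0.90 at the early and 0.42 at the advanced stage. The accessory gene Atp6ap2 was higher by 0.82 ± 0.19.

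**Figure D2:**
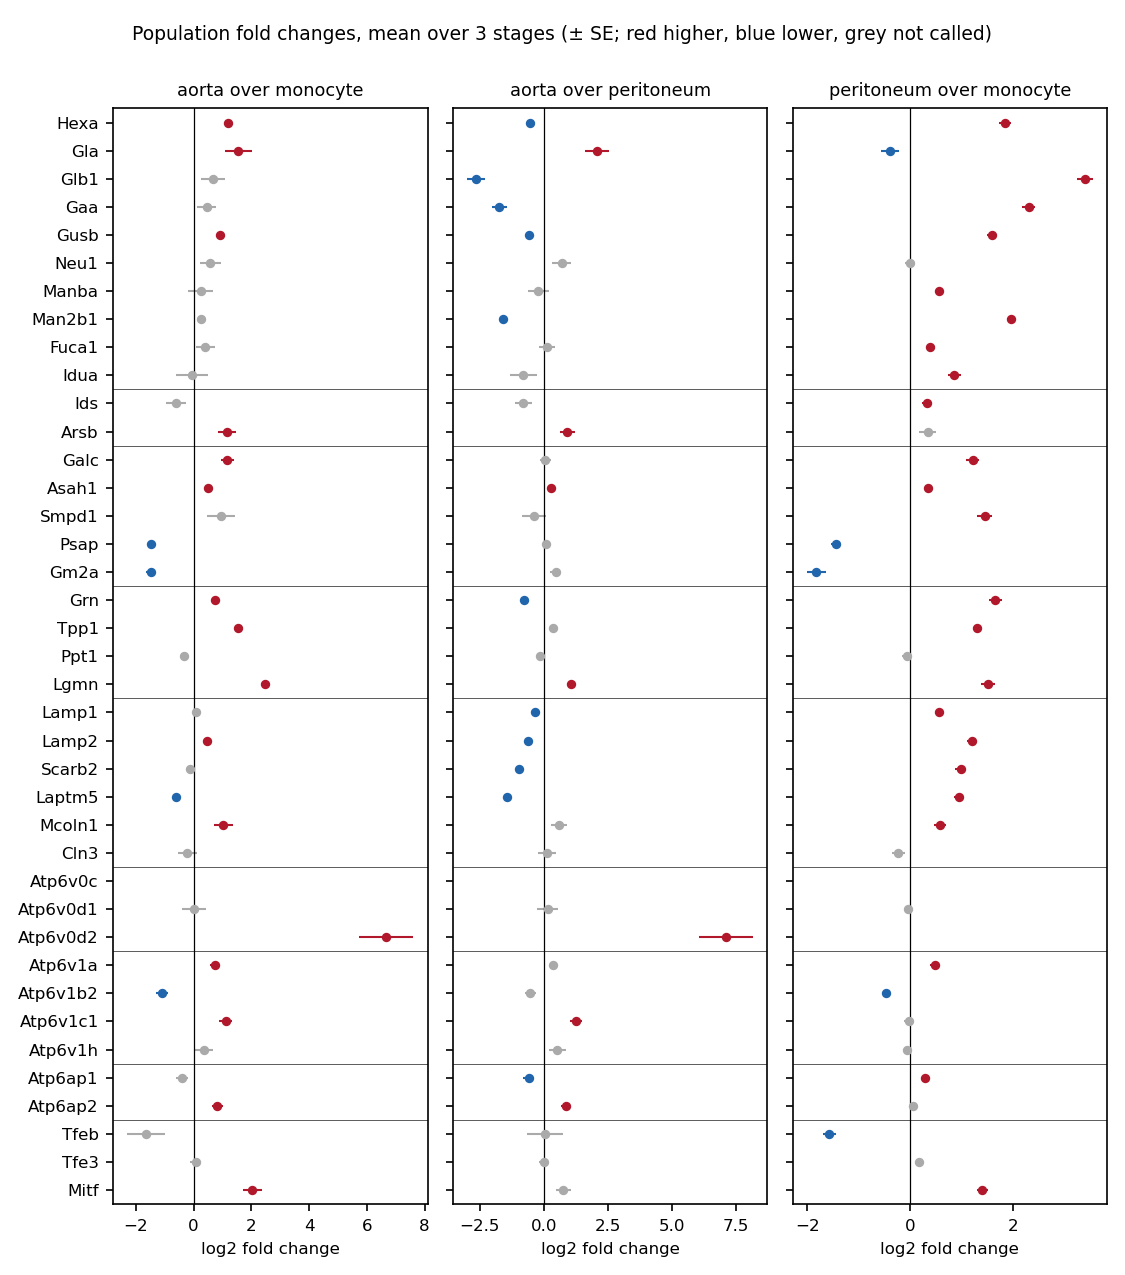
Log2 fold change (x axis, ± SE) of each member between populations, as the mean over the 3 stages, from edgeR on 12 libraries per population; red and blue points passed the test. Lgmn lies to the right in both aortic panels, and Psap and Gm2a lie to the left wherever monocytes are the denominator.

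Compared with peritoneal macrophages, aortic macrophages had lower levels of several glycosidase and membrane protein genes and higher levels of Lgmn and Gla. Against the peritoneum, 7 of 38 members were higher and 11 lower in aortic macrophages, or 47.4%, against 26.8% of all 10698 genes tested, with 14.9% higher and 11.9% lower. The 7 again include Atp6v0d2. The median log2 fold change was 0.05, against 0.01 over all genes. Of the glycosidases, 5 of 10 were lower and 1 higher, and of the membrane proteins 4 of 6 were lower and none higher. Laptm5 and Man2b1 were lower in the aorta with no overlap between libraries, against 2.22% of all genes, and no member was higher without overlap, against 2.13%.

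Man2b1, the lysosomal alpha-mannosidase gene, had 303 to 753 CPM (median 506) in aortic macrophages and 1095 to 1843 CPM (median 1452) in peritoneal macrophages, a log2 fold change of -1.58 ± 0.11 (adjusted p = 9.77e-12, edgeR). Glb1, the beta-galactosidase gene used as a lysosomal and senescence marker, had 2.5 to 95.0 CPM (median 44.9) in the aorta and 94.6 to 276 CPM (median 232) in the peritoneum, a log2 fold change of -2.64 ± 0.35 (adjusted p = 1.24e-06, edgeR). Aortic libraries thus lay below peritoneal ones for Man2b1 throughout, and for Glb1 with an overlap at the edges. Gaa, the glycogen-degrading acid alpha-glucosidase gene, was lower with a log2 fold change of -1.74 ± 0.30, and Gusb with -0.57 ± 0.12 (adjusted p = 4.23e-05 and 0.000547, edgeR). Gusb overlapped at the advanced stage, with 240 to 331 CPM in the aorta and 286 to 321 CPM in the peritoneum. At the early stage it had 138 to 170 CPM against 260 to 365 CPM. Gla went the other way, with 0.2 to 133 CPM (median 77.8) in the aorta and 8.9 to 23.4 CPM (median 14.6) in the peritoneum, and was higher by 2.07 ± 0.48 (log2, adjusted p = 0.00135, edgeR).

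Laptm5, a lysosomal transmembrane protein of blood cells, had 563 to 1364 CPM (median 818) in the aorta and 1456 to 2805 CPM (median 2043) in the peritoneum, a log2 fold change of -1.44 ± 0.12 (adjusted p = 2.88e-10, edgeR). Scarb2, the receptor that carries beta-glucocerebrosidase to lysosomes, was lower with a log2 fold change of -0.98 ± 0.16, Lamp2 with -0.63 ± 0.12 and Lamp1 with -0.35 ± 0.10. The ratio of mean Lamp2 levels was -1.12 on the log2 scale at baseline, 0.01 at the early stage and -0.55 at the advanced stage. Grn was lower with a log2 fold change of -0.79 ± 0.15, and Lgmn higher with 1.06 ± 0.15 (adjusted p = 0.000136 and 2.44e-06, edgeR). Lgmn was thus higher in the aorta than in both other populations. Psap did not pass against the peritoneum. Among pump genes Atp6v1c1 and Atp6ap2 were higher by 1.26 ± 0.25 and 0.88 ± 0.19, and Atp6ap1 was lower with a log2 fold change of -0.58 ± 0.22. At the advanced stage Atp6ap1 overlapped, with 200 to 278 CPM in the aorta and 257 to 266 CPM in the peritoneum. It had 110 to 183 against 211 to 233 CPM at the early stage, and 17.3 CPM in aortic baseline replicate 4. Arsb was higher by 0.92 ± 0.31 and Asah1 by 0.28 ± 0.10. Asah1, Arsb and Atp6ap1 missed the threshold when some single libraries were left out, with adjusted p up to 0.259 without aortic advanced replicate 2, 0.07 without peritoneal advanced replicate 1 and 0.0675 without aortic early replicate 4 (edgeR). Asah1 also missed it with RLE scaling (adjusted p = 0.24), thinned counts (0.103) and DESeq2 (0.2).

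Between peritoneal macrophages and monocytes 23 of 37 tested members were higher and 5 lower, or 75.7%, which is near the 67% of all 10343 genes called in this comparison, with 32.5% higher and 34.6% lower. The count is thus no result about the members, and their sizes are given as values. The median log2 fold change was 0.47 for the members and -0.02 for all genes. Without overlap, 8 members were higher, against 7.2% of all genes, and 3 lower, against 10.8%. The 8 were Grn, Gaa, Gusb, Mitf, Tpp1, Man2b1, Hexa and Glb1, and the 3 were Psap, Tfeb and Atp6v1b2, named here after their values were seen.

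Glb1 showed the greatest difference of the 37, with 94.6 to 276 CPM in the peritoneum (median 232) and 13.8 to 34.3 CPM in monocytes (median 22.6), a log2 fold change of 3.39 ± 0.15 (adjusted p = 7.3e-16, edgeR). Gaa, Man2b1 and Gusb were higher by 2.30 ± 0.13, 1.95 ± 0.08 and 1.59 ± 0.09. Among membrane proteins Lamp2, Scarb2, Laptm5 and Lamp1 were higher by 1.19 ± 0.09, 0.98 ± 0.10, 0.94 ± 0.09 and 0.55 ± 0.08, and among processing genes Grn, Lgmn and Tpp1 by 1.65 ± 0.12, 1.51 ± 0.14 and 1.30 ± 0.09. Smpd1 and Galc were higher by 1.44 ± 0.15 and 1.21 ± 0.13, while the activator genes Gm2a and Psap were lower with log2 fold changes of -1.82 ± 0.19 and -1.44 ± 0.10. The 2 MiT/TFE genes that passed went opposite ways. Tfeb had 4.97 to 26.7 CPM (median 14.2) in the peritoneum and 27.1 to 68.4 CPM (median 49.6) in monocytes, a log2 fold change of -1.57 ± 0.13 (adjusted p = 1.3e-10, edgeR). Mitf was higher in the peritoneum by 1.40 ± 0.11 (log2, adjusted p = 2.71e-11, edgeR), and Tfe3 did not pass in any of the 3 population comparisons. Of the pump genes, Atp6v1a was higher by 0.47 ± 0.08 and Atp6ap1 by 0.28 ± 0.08, and Atp6v1b2 was lower with a log2 fold change of -0.47 ± 0.08. Gla was lower with a log2 fold change of -0.39 ± 0.17 and missed the threshold without some single libraries, with adjusted p up to 0.0981 without monocyte baseline replicate 2, and 0.135 with thinned counts (edgeR).

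Nearly all counts of Atp6v0d2 came from aortic macrophages. It encodes the d2 form of a subunit of the membrane sector, best known from osteoclasts, while Atp6v0d1 encodes the widely expressed d1 form. Atp6v0d2 had 1552 counts over aortic libraries, 11 of 12 with a count, 18 counts over peritoneal libraries and 9 over monocyte libraries. Pooled over libraries this was 31.9 CPM in the aorta, 0.295 CPM in the peritoneum and 0.151 CPM in monocytes. The pooled level in the aorta was 108 times that in the peritoneum (95% interval 68.1 to 183) and 211 times that in monocytes (111 to 463), intervals that cover counting error only. The gene passed the filter on low counts only in fits with aortic libraries, so its fitted differences from the other populations are not given as support, although it is among the members counted as called above. Atp6v0d1 had 4420 counts in the aorta, 5383 in the peritoneum and 6334 in monocytes, and did not pass in any population comparison.

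Atp6v0d2 varied widely within the aorta. Its levels were 0, 15.5, 35.0 and 13.8 CPM at baseline, 36.1, 0.762, 0.380 and 4.01 CPM at the early stage, and 33.5, 140, 167 and 118 CPM at the advanced stage. Of the advanced libraries 3 lay above all others and replicate 1 lay within the range of the earlier stages. Of all d-subunit counts, Atp6v0d2 took a median of 17.1% at baseline, 3.21% at the early and 50.9% at the advanced stage. At baseline this share spanned 0 to 99.2%, and the highest was replicate 4, with 129 counts of Atp6v0d2 and 1 count of Atp6v0d1. The stage differences of Atp6v0d2 did not pass, with a log2 fold change of 3.44 ± 1.38 for advanced over early (adjusted p = 1, unadjusted p = 0.0216, edgeR) and 2.94 ± 1.34 for advanced over baseline (adjusted p = 0.516, edgeR).

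**Figure D3:**
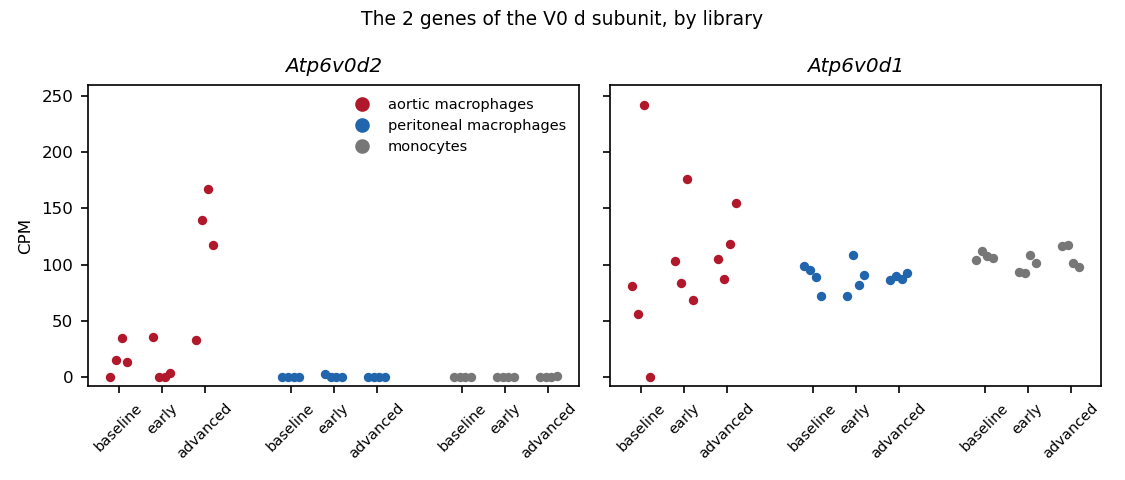
Level in CPM (y axis, linear from 0) of Atp6v0d2 and Atp6v0d1 in each library, by population and stage. Atp6v0d2 reached 118 to 167 CPM in 3 of 4 advanced aortic libraries and at most 3.40 CPM in peritoneal and 1.45 CPM in monocyte libraries, while Atp6v0d1 was present in all populations.

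In monocytes some members were called lower on the diet, among them the genes of the 2 factors Tfeb and Tfe3. Only the calls of Tfe3 after 1 month and Tfeb after 6 months held in all 14 alternatives. Of 37 members tested, 6 were lower and none higher after 1 month than at baseline, or 16.2%, against 10.8% of all 9465 genes and 5.08% for lower genes alone. After 6 months 2 were higher and 5 lower than at baseline, or 18.9%, against 19% of all genes, with 9.23% higher and 9.75% lower, so the count is no more than the background. The median log2 fold change of the members was -0.16 after 1 month and -0.15 after 6 months, against -0.00 and -0.02 over all genes. The 2 comparisons share their baseline libraries, which were also the deeper ones. Libraries did not overlap for 8 lower and 1 higher members after 1 month, against 10.2 and 7.27% of all genes, and for 9 lower and 1 higher after 6 months, against 13.7 and 8.47%.

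Tfeb had 65.9, 62.5, 68.4 and 63.2 CPM at baseline, 51.9, 52.4, 40.3 and 47.4 CPM at the early stage, and 27.1, 40.3, 30.9 and 40.0 CPM at the advanced stage. All 8 libraries of mice on the diet lay below the baseline libraries. The log2 fold change was -0.41 ± 0.12 for early over baseline (adjusted p = 0.0453, edgeR), and -0.88 ± 0.13 for advanced over baseline (adjusted p = 0.000671, edgeR). Tfe3 had 90.8, 103, 92.1 and 81.7 CPM at baseline, 49.4, 51.0, 78.1 and 58.4 CPM at the early stage, and 64.2, 74.2, 55.8 and 66.1 CPM at the advanced stage. Its log2 fold change was -0.61 ± 0.13 after 1 month (adjusted p = 0.0101, edgeR) and -0.46 ± 0.14 after 6 months (adjusted p = 0.0305, edgeR), and the call after 6 months missed the threshold in 8 of 14 alternatives (adjusted p up to 0.0945). Mitf did not pass at either stage.

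Gm2a had 1187, 1342, 1089 and 1210 CPM at baseline, 998, 759, 1007 and 868 CPM at the early stage, and 836, 1001, 722 and 924 CPM at the advanced stage, again with no overlap with baseline. Its log2 fold change was -0.38 ± 0.12 after 1 month and -0.43 ± 0.12 after 6 months (adjusted p = 0.0488 and 0.0201, edgeR). Of 14 alternatives the call missed the threshold in 9 after 1 month, with adjusted p of 0.0739 when thinned and up to 0.14, and in 3 after 6 months, up to 0.066. Laptm5 had 1493, 1533, 1517 and 1439 CPM at baseline, 1054, 1036, 1356 and 994 CPM at the early stage, and 1138, 1316, 1013 and 1166 CPM at the advanced stage. Both diet stages lay below every baseline library, with log2 fold changes of -0.40 ± 0.11 and -0.33 ± 0.11 (adjusted p = 0.0281 and 0.0458, edgeR). The call for Laptm5 missed the threshold in 7 of 14 alternatives after 1 month (adjusted p up to 0.0865) and in 13 of 14 after 6 months (0.0575 when thinned, up to 0.126).

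Man2b1 and Cln3 passed after 1 month only. Cln3 encodes a membrane protein lost in juvenile neuronal ceroid lipofuscinosis. Man2b1 had 395, 350, 405 and 369 CPM at the early stage against 527, 554, 476 and 549 CPM at baseline, a log2 fold change of -0.45 ± 0.10 (adjusted p = 0.0139, edgeR), which missed the threshold with thinned counts (adjusted p = 0.061). Cln3 had 31.2, 24.6, 29.6 and 29.2 CPM at the early stage against 42.1, 38.5, 41.4 and 46.6 CPM at baseline, a log2 fold change of -0.54 ± 0.14 (adjusted p = 0.0275, edgeR). It missed the threshold in 5 of 14 alternatives, with adjusted p up to 0.201 when thinned. At the advanced stage their adjusted p against baseline was 0.0518 and 0.0513 (edgeR), with the same direction.

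After 6 months 3 further members passed. Gaa had 19.2, 17.0, 16.0 and 16.7 CPM at the advanced stage against 27.3, 29.9, 28.2 and 29.5 CPM at baseline, a log2 fold change of -0.69 ± 0.16 (adjusted p = 0.00784, edgeR). With counts thinned to the shallowest library it was -0.363 ± 0.257 and did not pass (adjusted p = 0.381, edgeR). Gla had 23.8, 40.3, 33.8 and 37.0 CPM at the advanced stage against 13.2, 29.1, 21.8 and 9.13 CPM at baseline, which overlap, and was higher by 0.93 ± 0.29 (log2, adjusted p = 0.0356, edgeR), which missed the threshold in 6 of 14 alternatives (up to 0.0958). Atp6ap2, the (pro)renin receptor gene whose product assists pump assembly, had 139, 165, 152 and 146 CPM at the advanced stage against 119, 140, 112 and 118 CPM at baseline, and was higher by 0.35 ± 0.10 (log2, adjusted p = 0.024, edgeR), which missed it in 5 of 14 (up to 0.0757). The advanced libraries were thus low for one glycosidase gene and high for another.

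**Figure D4:**
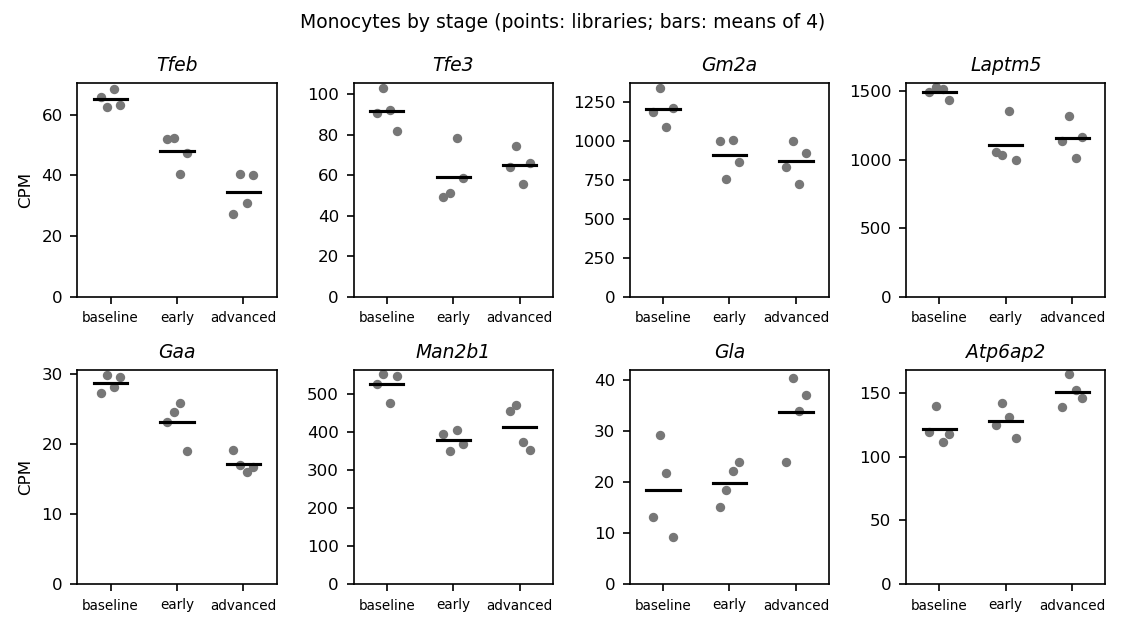
CPM (y axis, linear from 0) of 8 members in the 12 monocyte libraries at baseline, early and advanced stage, with 1 point per library and a bar at the mean of 4. Every library after 6 months lies below the baseline range for Tfeb, Tfe3, Gm2a, Laptm5, Gaa and Man2b1, and the values of Gla overlap.

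Between the advanced and the early stage no monocyte member passed, against 2.07% of all genes called. An unadjusted p below 0.05 was seen for 9 members and DESeq2 called 1, without the shares of all genes by these measures at hand. Depth differed less here than against baseline, with 942899 to 1685481 counted reads in advanced and 1588174 to 2259001 in early libraries. The smallest p values were those of Tfeb (log2 fold change -0.47 ± 0.14, adjusted p = 0.0918), Lamp2 (0.49 ± 0.15, adjusted p = 0.0974) and Galc (0.57 ± 0.18, adjusted p = 0.116, all edgeR). The 6 neutrophil markers (S100a8, S100a9, Retnlg, Csf3r, Mmp8 and Cxcr2) were all detected in monocytes and summed to 587 to 817 CPM at baseline, 2644 to 10060 CPM at the early stage and 3762 to 27060 CPM at the advanced stage. The 5 T and NK cell markers summed to 9.42 to 32.1, 37.8 to 681 and 7.26 to 20.2 CPM at baseline, early and advanced stage, and the 4 B cell markers to 13 to 37.0, 32.1 to 124 and 10.1 to 18.5 CPM. The 4 monocyte markers summed to 2999 to 4087 CPM at baseline, 2245 to 2991 CPM at the early stage and 2404 to 2969 CPM at the advanced stage. The ribosomal precursor gene Rn45s took 6.80 to 11%, 12.1 to 13.7% and 6.5 to 13.9% of counted reads at the 3 stages. The part of any of these in the monocyte differences was not tested. The fall of Tfe3 after 1 month (adjusted p at most 0.0413) and of Tfeb after 6 months (at most 0.00682) passed in each of the 14 alternatives run, which include leaving out each single library (edgeR or DESeq2). Tfeb after 1 month missed the threshold whichever of the 8 libraries was left out, and its log2 fold change was -0.264 ± 0.166 with thinned counts (adjusted p = 0.391, edgeR). The count after 1 month was 2 with counts thinned to the depth of the shallowest library, and 2 without monocyte baseline replicate 1 or 4 or early replicate 2 or 4, or 3 without baseline replicate 2 or early replicate 1. The count after 6 months was 3 without baseline replicate 1 or advanced replicate 3, the library with most neutrophil marker reads, and 4 without baseline replicate 2.

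In aortic macrophages no member passed in any stage comparison, where 0.373% of 9920 genes passed for early over baseline, 0.0403% for advanced over early and 0.585% for advanced over baseline. The number with an unadjusted p below 0.05 was 6, 7 and 8 of 38 (edgeR), and DESeq2 called 2, 0 and 3. Without aortic baseline replicate 4, 1 member passed for advanced over baseline. Shares of all genes by these measures are not given here, so these counts are no result about the members. For advanced over early, 30 of the 38 members had a positive log2 fold change with a median of 0.43, against -0.02 over all genes, and 8 were higher without overlap between libraries, against 4.89% of all genes, and none lower, against 3.76%. These 8 were Grn, Galc, Lgmn, Scarb2, Idua, Gusb, Atp6v1b2 and Atp6ap1, named here after their values were seen. The 4 arterial resident macrophage markers summed to 4368 to 5769 CPM in the advanced libraries, against 7012 to 9177 CPM in the early ones. Detected genes numbered 9216, 12663, 13293 and 12808 in the advanced libraries, against 9470 to 10726 in the early ones. The part of either in the shift was not tested. For advanced over baseline 6 members were higher and 1 lower without overlap, against 5.46 and 3.78% of all genes. For early over baseline none was higher and 2 were lower, against 3.12 and 2.64%.

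Lgmn had 577, 737, 784 and 435 CPM at baseline, 827, 663, 797 and 792 CPM at the early stage, and 1090, 992, 1187 and 1125 CPM at the advanced stage. All advanced libraries lay above the others, and the log2 fold change over baseline was 0.92 ± 0.22 (adjusted p = 0.0708, edgeR). With thinned counts it passed (adjusted p = 0.0377, edgeR). Lamp2 had 580, 849, 589 and 631 CPM at baseline, 1085, 843, 1039 and 1530 CPM at the early stage, and 1030, 1126, 1140 and 1193 CPM at the advanced stage, with log2 fold changes over baseline of 0.90 ± 0.24 early and 0.88 ± 0.24 advanced (adjusted p = 0.114 and 0.11, edgeR). Gaa had 5.03, 11.9, 16.9 and 5.04 CPM at baseline, 87.9, 14.5, 49.1 and 24 CPM at the early stage, and 130, 44.3, 53.7 and 47.8 CPM at the advanced stage. The advanced and baseline libraries of Gaa did not overlap, yet the log2 fold change of 2.94 ± 0.91 did not pass (adjusted p = 0.155, edgeR).

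None of the other aortic differences passed either, and the members of smallest p are given by value. Psap had 2848, 2600, 3317 and 1921 CPM at baseline, 1645, 1969, 1703 and 982 CPM at the early stage, and 3096, 1827, 2762 and 2074 CPM at the advanced stage. Its log2 fold change was -0.66 ± 0.22 for early over baseline and 0.65 ± 0.22 for advanced over early (adjusted p = 0.206 and 0.915, edgeR), comparisons that share the early libraries. Gm2a had 538, 549, 498 and 800.0 CPM at baseline, 223, 404, 156 and 174 CPM at the early stage, and 458, 196, 283 and 260 CPM at the advanced stage, with -1.24 ± 0.34 for early over baseline (adjusted p = 0.114, edgeR). Gusb had 335, 336, 193 and 225 CPM at baseline, 170, 145, 138 and 169 CPM at the early stage, and 266, 240, 331 and 288 CPM at the advanced stage, and its early libraries overlapped neither of the other stages. Gusb gave 0.85 ± 0.30 for advanced over early (adjusted p = 0.952, edgeR). Atp6v1a had 200, 159, 227 and 386 CPM at baseline, 340, 134, 248 and 136 CPM at the early stage, and 314, 550, 524 and 489 CPM at the advanced stage, with 1.13 ± 0.37 for advanced over early (adjusted p = 0.881, edgeR). The 7 fibroblast markers, all detected in the aorta at each stage, summed to 8.90 to 287 CPM at baseline, 510 to 1058 CPM at the early stage and 140 to 379 CPM at the advanced stage, so that the early libraries held the most. Their part in these values was not tested.

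In peritoneal macrophages no member passed either, against 1.88% of 9575 genes for early over baseline, 1.32% for advanced over early and 0.898% for advanced over baseline. The number with an unadjusted p below 0.05 was 6, 10 and 4 of 37 (edgeR), and DESeq2 called 1, 4 and 2. Shares of all genes by these measures are not given here, so these counts are no result about the members. Members without overlap numbered 0 higher and 2 lower for early over baseline, against 3.35 and 6.14% of all genes, 5 higher and 1 lower for advanced over early, against 3.55 and 4.29%, and 2 higher and 3 lower for advanced over baseline, against 4.84 and 10.3%. Without early replicates 1 and 2, the spread was smaller and 4 members passed for advanced over baseline, among them Laptm5 (log2 fold change -0.55, adjusted p = 0.00198), Scarb2 (0.58, adjusted p = 0.00286) and Atp6v1h (0.41, adjusted p = 0.0351, all edgeR). For early over baseline 4 members passed when early replicate 3 was left out. For advanced over early 1 member passed without early replicate 3 or advanced replicate 1, and 2 passed without early replicate 4. Shares of all genes called in these reduced fits are not given here, so these counts are no result about the members.

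Gm2a and Tfeb were highest in a pair of early libraries. Gm2a had 237, 224, 214 and 183 CPM at baseline, 389, 1064, 176 and 189 CPM at the early stage, and 142, 155, 163 and 138 CPM at the advanced stage. Tfeb had 16.8, 11.7, 14.0 and 10.9 CPM at baseline, 26.7, 25.4, 16.8 and 14.3 CPM at the early stage, and 18.0, 8.40, 7.62 and 4.97 CPM at the advanced stage. Early replicates 1 and 2 were the highest of the 12 for both genes, and they also held the most reads of the 4 monocyte markers (Ly6c2, Ccr2, Nr4a1 and Cx3cr1). These markers summed to 15.8 to 36.3 CPM at baseline, 82.1 to 1462 CPM at the early stage and 7.62 to 35.5 CPM at the advanced stage, and all 4 were detected at each stage. The sum was uneven over the markers, with peritoneal maxima of 1311 CPM for Ccr2 and 130 CPM for Nr4a1. Cx3cr1 reached 19.9 CPM and Ly6c2 4.37 CPM, against at least 245 and 371 CPM in every monocyte library. Other marker sums also differed in these libraries. The 3 mast cell markers summed to 269.7 CPM in early replicate 2 and to 28.95 to 40.31 CPM in the other early libraries. The 4 peritoneal macrophage markers summed to 6131 and 3629 CPM in early replicates 1 and 2, against 10070 and 9672 CPM in replicates 3 and 4. The part of any of these marker reads in the Gm2a and Tfeb values was not tested. The log2 fold change of Gm2a for early over baseline was 1.08 ± 0.39 with all libraries (adjusted p = 0.144, edgeR) and -0.123 ± 0.108 without those 2 (adjusted p = 0.714, edgeR). For advanced over early it was -1.52 ± 0.41 for Gm2a and -1.06 ± 0.33 for Tfeb (adjusted p = 0.0751 and 0.113, edgeR).

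**Figure D5:**
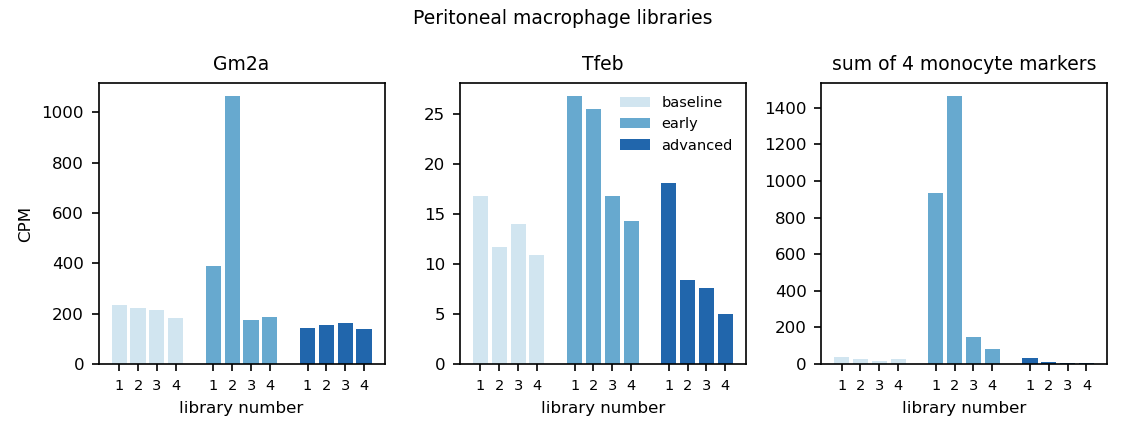
CPM (y axes, linear from 0) of Gm2a, Tfeb and the sum of 4 monocyte markers in each peritoneal library, with 1 bar per library. Early replicates 1 and 2 are highest in all 3 panels, at 389 and 1064 CPM for Gm2a. Of the 4 markers Ccr2 reached 1311 CPM and Ly6c2 at most 4.37 CPM.

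The other peritoneal members of smallest p were Lamp2, Tfe3, Laptm5 and Atp6v1h. Lamp2 had 1564, 1483, 1597 and 1119 CPM at baseline, 1181, 854, 1159 and 1271 CPM at the early stage, and 1497, 1604, 1800 and 1693 CPM at the advanced stage, with a log2 fold change of 0.60 ± 0.16 for advanced over early (adjusted p = 0.0721, edgeR). Its advanced libraries all lay above the early ones. Tfe3 had 93.3, 85.3, 88.0 and 70.4 CPM at baseline, 52.9, 53.5, 76.9 and 53.0 CPM at the early stage, and 64.5, 70.8, 60.5 and 69.2 CPM at the advanced stage, with -0.48 ± 0.15 for early over baseline (adjusted p = 0.0948, edgeR). Laptm5 had 2615, 2805, 2621 and 2735 CPM at baseline, 1456, 1514, 2362 and 2222 CPM at the early stage, and 1804, 1863, 1694 and 1613 CPM at the advanced stage, with all baseline libraries above the rest. Its log2 fold change was -0.46 ± 0.18 early and -0.55 ± 0.18 advanced over baseline (adjusted p = 0.161 and 0.142, edgeR). Atp6v1h, a regulatory V1 subunit gene, had 73.8, 60.0, 62.1 and 66.0 CPM at the advanced stage against 48.5, 52.3, 54.5 and 53.1 CPM at baseline, with 0.41 ± 0.13 (adjusted p = 0.123, edgeR).

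Whether stage changes differed between populations was tested as the difference of the advanced over early log2 fold changes. No member passed, where 0.0654% of 10696 genes passed for the aorta minus monocytes, 0.234% of 10698 genes for the aorta minus the peritoneum and 1.25% of 10343 genes for the peritoneum minus monocytes. The number of members with an unadjusted p below 0.05 was 2 of 38, 5 of 38 and 4 of 37 (edgeR), and DESeq2 called 1 in the comparison of peritoneum and monocytes. Shares of all genes by these measures are not given here, so these counts are no result about the members. For the aorta minus monocytes the smallest p were those of Psap (0.69 ± 0.27, adjusted p = 0.517), Grn (0.70 ± 0.30, adjusted p = 0.655) and Atp6v1a (0.84 ± 0.42, adjusted p = 0.809, all edgeR). For the aorta minus the peritoneum they were Gm2a (1.84 ± 0.55, adjusted p = 0.2), Atp6v0d2 and Gusb (0.80 ± 0.30, adjusted p = 0.383, both edgeR), where Atp6v0d2 is given without values because it had no counts in the advanced peritoneal libraries. For the peritoneum minus monocytes they were Gm2a (-1.48 ± 0.45, adjusted p = 0.0931), Arsb (1.04 ± 0.42, adjusted p = 0.216) and Smpd1 (0.95 ± 0.39, adjusted p = 0.216, all edgeR).

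A comparison of the aorta and monocytes in their change from baseline to advanced was added because Gaa was seen to move oppositely in them. The p-value for Gaa is therefore no independent support. The comparison called 1 of 38 members (2.63%), Gaa, as higher, and 2.8% of all 10696 genes, with 2.6% higher. Gaa was lower in monocytes and had higher values in the aorta after 6 months, and the difference between the log2 fold changes was 3.68 ± 0.83 (adjusted p = 0.0155, edgeR). With thinned counts the difference was 3.25 ± 0.875 and not called (adjusted p = 0.0662, edgeR). Without aortic baseline replicate 4 the comparison called 3 members, and the share of all genes called in that fit is not given here.

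Genes of the same pathway outside the 39 differed between populations in both directions. Of 47 further lysosomal genes 44 were in the files and were tested in the aortic comparisons. Against monocytes 12 were higher in the aorta, among them Cd63 (log2 fold change 3.85 ± 0.31), Tpcn2 (2.30 ± 0.34) and Pla2g15 (1.48 ± 0.20), and 5 lower, among them Sort1 (-4.29 ± 0.58), Npc2 (-0.59 ± 0.13) and Galns (-3.05 ± 0.72). Against the peritoneum 6 were higher, among them Cd63 (2.15 ± 0.24), Tpcn1 (1.30 ± 0.23) and the tartrate-resistant phosphatase gene Acp5 (3.12 ± 0.62), and 10 lower, among them Hgsnat (-2.86 ± 0.17), Arsg (-5.67 ± 0.59) and Sort1 (-3.85 ± 0.60). Of 43 tested between peritoneum and monocytes 25 were higher, among them Naglu (3.22 ± 0.16), Hgsnat (2.97 ± 0.12) and Man2b2 (1.87 ± 0.11), and 9 lower, among them Acp5 (-3.36 ± 0.27), Sumf1 (-1.09 ± 0.11) and Gnptab (-0.94 ± 0.08). These counts are 38.6% of the list for the aorta over monocytes, 36.4% for the aorta over the peritoneum and 79.1% for the peritoneum over monocytes, against 29.7, 26.8 and 67% of all genes. The medians of these 3 comparisons were 0.31, -0.13 and 0.44 on the log2 scale, against -0.12, 0.01 and -0.02 over all genes.

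Of 16 further pump genes 9 were tested. Atp6v0a1, an a-subunit gene, was higher in the aorta than in monocytes by 2.27 ± 0.21 and than in the peritoneum by 0.98 ± 0.19, and was higher in the peritoneum than in monocytes by 1.40 ± 0.10. The osteoclast-type a-subunit gene Tcirg1 was higher in the aorta than in the peritoneum by 0.84 ± 0.26, and lower in the peritoneum than in monocytes with a log2 fold change of -0.85 ± 0.11. In all, 2 of the 9 were higher and 1 lower in the aorta over monocytes, 3 higher in the aorta over the peritoneum, and 1 higher and 5 lower in the peritoneum over monocytes. At 33.3, 33.3 and 66.7% of the 9 genes, these shares are near those of all genes. Of 31 genes of MiT/TFE control and autophagy 29 were tested. Fnip1, Sqstm1 and Rragc were among 6 that were higher in the aorta than in monocytes, by 1.34 ± 0.13, 1.78 ± 0.23 and 0.96 ± 0.20, and Ywhab was lower with a log2 fold change of -0.82 ± 0.13. Fnip1 encodes a partner of folliculin, Rragc a Rag GTPase of the lysosomal surface and Sqstm1 the autophagy receptor p62. Against the peritoneum 6 were higher, among them Sqstm1 (1.92 ± 0.24), Fnip1 (1.07 ± 0.13) and Vps18 (0.95 ± 0.26), and Ywhab was lower with a log2 fold change of -0.73 ± 0.13. Between peritoneum and monocytes 13 were higher and 6 lower. The shares called were 24.1, 24.1 and 65.5%, at or below those of all genes.

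Across stages most calls in these lists were in monocytes, as were most calls over all genes. Of the further lysosomal genes 14.3% were called after 1 month and 23.8% after 6 months, against 10.8 and 19% of all genes. After 6 months 3 further lysosomal genes were higher than at baseline, namely Cd63 (3.43 ± 0.49), Igf2r (1.27 ± 0.38) and Ggh (0.42 ± 0.13), and 7 lower, among them Abca2 (-0.84 ± 0.12), Clcn7 (-0.68 ± 0.14) and Man2b2 (-0.48 ± 0.11). After 1 month 2 were higher, Cd63 and Igf2r, and 4 lower, among them Hgsnat (-0.62 ± 0.13), Clcn7 (-0.60 ± 0.14) and Npc1 (-0.49 ± 0.12). Among the further pump genes Atp6v1g1 was higher after 1 month by 0.59 ± 0.12 and after 6 months by 0.79 ± 0.12, with Atp6v1f higher after 1 month, Atp6v1d and Atp6v1e1 higher after 6 months and Tcirg1 lower after 6 months with a log2 fold change of -0.51 ± 0.15. Of the control and autophagy genes 1 was higher after 1 month, and 5 were higher and 3 lower after 6 months, among them Wipi1 (1.32 ± 0.29), Tfec (1.18 ± 0.32) and Ppp3cb (0.37 ± 0.09) higher and Mtor (-0.53 ± 0.14), Tsc2 (-0.46 ± 0.13) and Rptor (-0.54 ± 0.16) lower. Between the advanced and the early stage Abca2 was lower (-0.63) and Ppp3r1, a calcineurin subunit gene, was higher (0.42).

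In the aorta Gpnmb, a glycoprotein gene of lipid-laden macrophages, is given by its levels only, because its calls at both diet stages were made against a baseline with no counts. It had no counts in the 4 baseline libraries, which allows at most 0.0918 CPM over their pooled reads, 12.7, 0, 8.75 and 0.501 CPM at the early stage, and 104, 266, 425 and 258 CPM at the advanced stage. Advanced replicate 1, the lowest of the 4 for Gpnmb, was also the lowest for Atp6v0d2. Fnip1 was higher at the advanced stage than at baseline by 1.40 ± 0.30 (log2, adjusted p = 0.0281, edgeR). In the peritoneum Cd63, a tetraspanin of late endosomes, was higher at the advanced stage than at the early stage and than at baseline, by 1.74 ± 0.31 and 1.42 ± 0.27 (log2, adjusted p = 0.02 and 0.0299, edgeR), and no other gene of the 3 lists passed in the peritoneal stage comparisons.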

How the data were processed

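RNA-seq counts of 36 sorted-cell libraries were used, in 9 groups of 4. The deposited values are whole-number read counts per gene made by the authors. Per the submitters' processing notes, the tools and build include STAR, featureCounts and mm10. Their versions, counting settings and use of strand are not given in the sources used here. Paired-end libraries were made from polyA RNA with an Ovation SoLo kit, per the labels' protocols. The 39 members and the other gene lists were chosen with earlier results of these data known.

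Counts were tested with edgeR 4.0.16 in R 4.3.3 (TMM scaling, filterByExpr, quasi-likelihood F test, two-sided) over all genes that passed the filter, with Benjamini-Hochberg adjustment over all of them and a threshold of 0.05. Stages were compared in fits of the 12 libraries of 1 population, and populations, as the mean over 3 stages, and differences in response in fits of the 24 libraries of 2 populations. The filter kept 38 members in fits with aortic libraries and 37 in the others. SE is the log2 fold change divided by the square root of F. CPM is counts per 1000000 counted reads; RPKM divides it by the union exon length in kilobases (GENCODE M21 basic). Intervals and limits for 0 counts (3 counts over the pooled reads) cover counting error only.

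Named members are those that passed, at most 4 per role and direction by smallest adjusted p, or the 3 of smallest p where none passed; of the other lists at most 3 per direction are named. Levels of further members were named after their values were seen. Alternatives were RLE scaling, no filter, the replicate number as a block, thinned counts, a fit of all 36 libraries, DESeq2 1.42.0, and leaving out single libraries or those that stood apart. The fits were also run on simulated counts with known changes, whose outcome is not given here and on which no result above rests. Same-numbered libraries did not deviate together in most pairs of groups, so the main fits have no block.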

Additional observations from a re-analysis of the deposited data

Results flagged for a closer look

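In 69 groups of 4 libraries 5 single libraries lay far from the other 3, where chance gives about 1 in 20 groups. Laptm5 had 1356 CPM in monocyte early replicate 3, against 994 to 1054 CPM in the other 3. Atp6v0d2 had 36.1 CPM in aortic early replicate 1, against 0.380 to 4.01 CPM in the others. Gaa had 130 CPM (129.5) in aortic advanced replicate 1, against 44.3 to 53.7 CPM in the others. Gm2a had 800.0 CPM in aortic baseline replicate 4, against 498 to 549 CPM in the others. Tfe3 had 76.9 CPM in peritoneal early replicate 3, against 52.9 to 53.5 CPM in the others.

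The change of Gaa from baseline to the advanced stage differed between aortic macrophages and monocytes. The difference was 3.68 on the log2 scale (adjusted p = 0.0155, edgeR interaction test), higher in the aorta. The comparison was added because Gaa was seen to move in opposite directions, so its p-value is no independent support. With thinned counts the difference was 3.25 and not called (adjusted p = 0.0662, edgeR). The monocyte fall did not pass with thinned counts either (adjusted p = 0.381, edgeR). All 4 advanced aortic libraries lay above their baseline libraries and all 4 advanced monocyte libraries below theirs.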

How the results depend on the processing

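Counts of members called between populations ranged from 18 to 25 (aorta over monocytes), 18 to 23 (aorta over peritoneum) and 20 to 30 (peritoneum over monocytes) across settings, and from 20 to 25, 15 to 22 and 27 to 29 without single libraries. Stage counts moved more. Without a filter they were 3 for aorta early over baseline, 2 for aorta advanced over baseline and 1 for peritoneum advanced over early. DESeq2 gave 2 and 3 for these aortic comparisons, 1 for monocytes advanced over early, and 1, 4 and 2 for peritoneum early over baseline, advanced over early and advanced over baseline. Thinned counts gave 1 for aorta advanced over baseline and 2 for monocytes early over baseline. Without the libraries that stood apart the count was 1 for aorta advanced over baseline, 3 for monocytes and 4 for peritoneum advanced over baseline. In that setting Gm2a in peritoneum early over baseline reversed, to -0.123. The fit of all 36 libraries, with its larger spread, lost among others Atp6v1b2, Atp6ap1, Gla and Ids in peritoneum over monocytes (adjusted p = 0.0715, 0.248, 0.579 and 0.449). The cause of the other changes was not tested. Shares of all genes called in each setting are not given here, so these counts show only how the calls of members moved.

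Leaving out single libraries gave 0 to 0 for aorta early over baseline and advanced over early, 0 to 1 for aorta advanced over baseline, 2 to 8 for monocytes early over baseline, 0 to 0 for advanced over early and 3 to 8 for advanced over baseline, and 0 to 4, 0 to 2 and 0 to 0 for the peritoneum in the same order. For responses, the advanced over baseline count for aorta minus monocytes was 0 with the replicate block (Gaa 3.74, adjusted p = 0.156), 0 with thinned counts, 3 without the libraries that stood apart and 1 to 3 without single libraries. The advanced over early count for aorta minus peritoneum was 1 without the libraries that stood apart and 1 in the fit of all 36 libraries, and for peritoneum minus monocytes 1 with DESeq2 and 0 to 2 without single libraries.

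With the replicate number as a block the count for monocytes early over baseline was 3, and Gla, Mcoln1 and Arsb in aorta over monocytes (adjusted p = 0.175, 0.112 and 0.0516, edgeR) and Gla and Arsb in aorta over peritoneum (0.0798 and 0.13) missed the threshold. The numbers share no stated source, and correlations of same-numbered deviations were mostly near 0, with a lowest value of -0.28. Peritoneum and monocytes at baseline were the one pair of groups in which all 4 exceeded 0.1 (0.129 to 0.220), but not at the early and advanced stages (-0.07 to 0.05). The shallow libraries of the diet stages, 942899 to 2628766 counts, limit what low members such as Tfeb, Idua and Atp6v0d2 can show.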
